A study of Mus musculus with 8 samples.

Results

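The insulin-like growth factor (IGF) axis was examined in 10 genes chosen by name: the ligand *Igf1*, the receptors *Igf1r* and *Insr*, and the 7 IGF binding proteins *Igfbp1* to *Igfbp7*. All 10 were found among the 26263 genes counted. RNA-seq had been performed on hybrid embryonic stem cells (ESCs) and on the neural precursor cells (NPCs) obtained from them after 12 days of *in vitro* corticogenesis, a culture in which ESCs are directed toward cortical identities. Each stage was represented by a male line from each reciprocal cross, BJE2 (C57BL/6 x JF1, hereafter B/J) and JBE6 (JF1 x C57BL/6, hereafter J/B), with 2 libraries in each of the 4 groups. ESCs were kept with LIF, BMP4 and a GSK3-β inhibitor, whereas NPCs were made in defined medium with B27 lacking vitamin A and dorsomorphin homolog 1. Each cross was thus a single line, so that cross and line cannot be told apart, and the labels name no engineered mutation in any group. Libraries came from the TruSeq Stranded mRNA or the NEBNext Ultra II kit and from a HiSeq4000 or NovaSeq sequencer, but which library had which is not given. The labels do not state that replicates were separate cultures, so that p-values measure only the spread between these libraries.

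IGF1 and IGF2 are secreted growth factors that signal through the tyrosine kinase IGF1R and, in part, through the related insulin receptor, both of which activate the PI3K-AKT and MAPK cascades. IGF binding proteins (IGFBPs) hold IGFs outside the cell, where they lengthen their life and limit or direct their access to receptors, and proteases release the ligand by cutting them. In the developing brain this axis is known for promoting the growth and survival of neural progenitors.

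The reads assigned to genes numbered 22537138 in the smallest library and 32706015 in the largest. Levels are given as normalised CPM, that is, read counts relative to library size (CPM) after scaling each library by edgeR's TMM method. All 8 pluripotency markers were lower and 7 of 8 neural precursor markers were higher in NPCs (edgeR, adjusted p below 0.05), but the summed precursor level ranged from 655 to 1607 normalised CPM in NPCs against 325 to 427 in ESCs. Of the markers of other cell types, 9 of 10 fibroblast and mesenchyme markers and 10 of 10 trophoblast markers were higher in NPCs. Over all genes tested, 37.5% were higher. Of 8 neuron markers 6 were higher and 1 was lower, of 5 choroid plexus markers 2 and 1, of 5 smooth muscle markers 1 and 1, and of 4 blood markers 0 and 1. The summed mesenchyme level was 799.5 to 1946 normalised CPM in NPCs and 13.1 to 17.7 in 3 ESC libraries. It reached 86.8 in the J/B ESC replicate 1, which stood apart on this list. The summed trophoblast level was 1147 to 3146 normalised CPM in NPCs and 14.9 to 88.8 in ESCs, where *Tpbpa*, *Pappa2*, *Prl2c2* and *Prl3d1* were at 0 in every library. The markers at 0 in ESCs entered the test only through their NPC levels. The B/J NPC replicate 1 stood apart from the other NPC libraries, with the lowest precursor sum (655), a neuron sum of 285 against 326 to 457 normalised CPM in ESCs, and the highest trophoblast (3146) and endothelial (819) sums. Without it the same 8 members as with all libraries were called between stages. In bulk RNA, fewer cells of a type and less RNA per cell cannot be told apart, and the part of these other cells in the results below was not tested.

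Upon differentiation, 8 of the 9 members tested were higher in NPCs and none was lower (edgeR quasi-likelihood test, adjusted p below 0.05). Over all 16399 genes tested, 37.5% were higher and 31.9% were lower. The exceptions were *Igfbp3*, which did not pass the test, and *Igfbp1*, which was too low to be tested. Of the 8 members, *Igf1* and *Igfbp6* exceeded the low-count filter in no ESC library and *Igfbp7* in 1, so that these 3 were kept through their NPC levels and their calls are not independent of that filter. Every NPC library was above every ESC library for 8 of the 10 members, against 35.3% of the genes tested. Within B/J alone, 7 of 9 members were higher in NPCs (30.1% of all genes), and the same 7 were higher within J/B alone (29.1% of all genes).

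**Figure D1:**
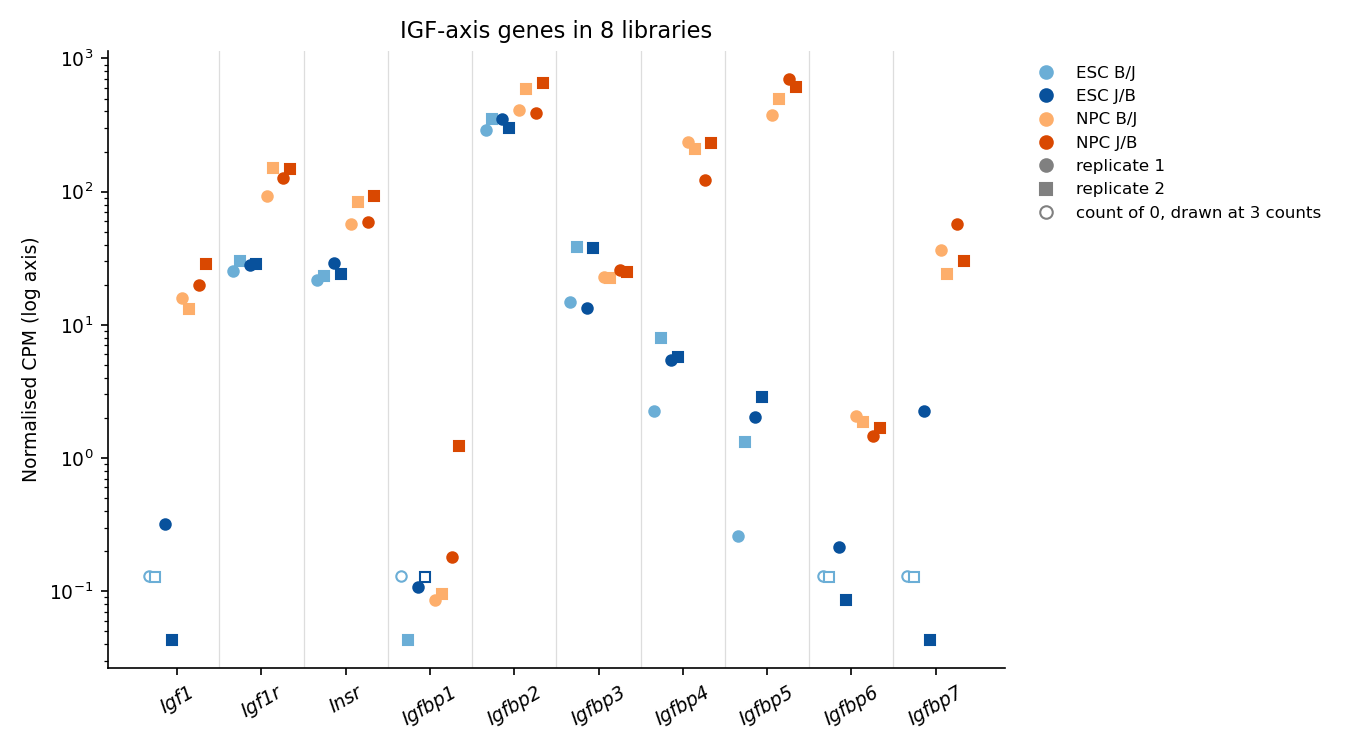
Normalised CPM of each gene in each of the 8 libraries, on a log axis; colours give stage and cross, circles replicate 1 and squares replicate 2, and open symbols are counts of 0 drawn at the level of 3 counts. NPC libraries lie above ESC libraries for 8 genes, whereas *Igfbp1* and *Igfbp3* overlap between stages.

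These folds depend in part on the scaling, since the median gene changed by 0.17 on the log2 scale with TMM, by 0.65 with library totals and by 0.80 with scaling to *Gapdh*, *Gusb* and *Tbp*. With TMM 54.0% of the genes called were higher in NPCs, against 70.1% when library totals were used and 75.0% after scaling to the housekeeping genes. Of these 3 reference genes, *Gapdh* (log2 -1.43, edgeR adjusted p = 1.42e-04) and *Tbp* (-0.69, adjusted p = 4.08e-03) were themselves lower in NPCs with TMM. The same 8 members were higher under each of these scalings.

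*Igf1*, the growth factor itself (chr10:87693642-87772904, plus strand, GRCm39), was nearly silent in ESCs and transcribed in NPCs. In ESCs it had 0 and 0 reads in B/J against 6 and 1 reads in J/B, and a count of 0 allowed at most 0.130 normalised CPM. In NPCs its level was 15.8 and 13.2 normalised CPM for the B/J libraries and 19.8 and 28.6 for the J/B ones. The 2 stages did not overlap, and all but 1 of the 7 ESC reads came from the J/B ESC replicate 1, the library with the higher mesenchyme markers. The pooled counts gave a 244-fold higher level in NPCs (exact 95% interval for counting error, 118 to 607), or 1345-fold without that library (241 to 53155). Within B/J the level was at least 226-fold higher (floor of 3 counts over the group), or at least 112-fold with either ESC library left out and the other one at 0. Within J/B the ratio was 143 (69.1 to 355), or 555 without the ESC replicate 1 and 73.9 without the ESC replicate 2. The change passed the test (edgeR quasi-likelihood test, adjusted p = 4.74e-05).

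The receptors rose less and were measured with more reads. *Igf1r*, the main signalling receptor (chr7:67601518-67883416, plus strand), had 25.3 and 30.1 normalised CPM in B/J ESCs and 28.1 and 28.4 in J/B ESCs. In NPCs it reached 92.7 and 150.3 in B/J against 126.8 and 147.3 in J/B, without overlap between the stages. Its log2 fold change was 2.21 (SE 0.18, edgeR adjusted p = 4.68e-05), with 2.13 (SE 0.26) within B/J and 2.28 (SE 0.26) within J/B. *Igf1r* shares 1247 exonic bases with *Pgpep1l* on the opposite strand, which held at most 14 reads in any library. *Insr*, the insulin receptor, which also pairs with IGF1R into hybrid receptors (chr8:3172061-3329647, minus strand), had 21.6 and 23.2 normalised CPM in B/J ESCs and 29.2 and 24.2 in J/B ESCs. Its NPC levels were 57.4 and 83.5 in B/J against 59.2 and 92.3 in J/B, again above every ESC library. The log2 fold change of *Insr* was 1.58 (SE 0.20, edgeR adjusted p = 3.06e-04).

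Both receptors thus rose, and the libraries of the 2 stages also had different ratios between them. Per kb of exon, the *Igf1r* level was 0.670 to 0.902 times that of *Insr* in the ESC libraries and 1.11 to 1.49 times in the NPC libraries. The ratio per kb was above 1 in all 4 NPC libraries and in no ESC library. In read counts, not divided by length, it was 0.962 to 1.29 in ESCs and 1.60 to 2.14 in NPCs. The side of 1 on which ESC libraries fall thus depends on the length, whereas the stages did not overlap either way. These ratios are given as a description without a test.

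**Figure D2:**
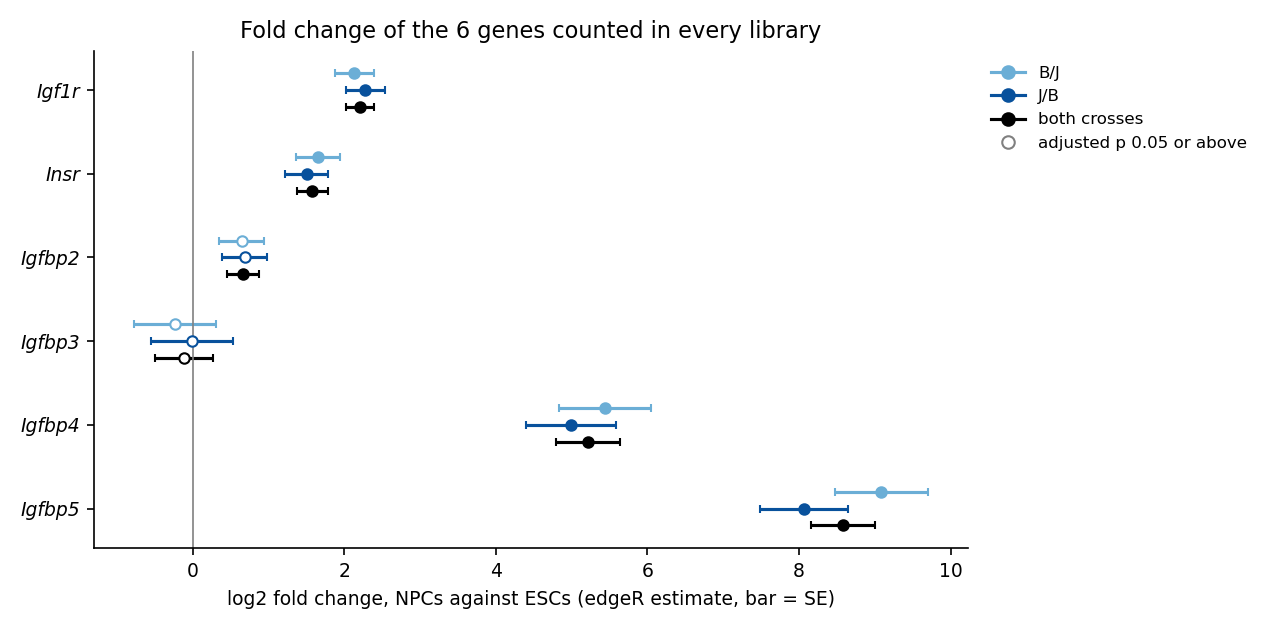
Log2 fold change between NPCs and ESCs (edgeR estimate, bars give the SE) within B/J, within J/B and over both crosses, for the 6 members counted in every library; open symbols did not pass the test. *Igfbp5* and *Igfbp4* changed the most, and *Igfbp3* lies at 0 within its error.

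Among the binding proteins, *Igfbp2*, *Igfbp5*, *Igfbp4* and *Igfbp7* had the highest mean levels per kb in NPCs. The 150 bases that end just before the annotated start of each are shown on the strand of the gene, because these genes carried most of the binding-protein RNA in NPCs and yet started from very different ESC levels. They come from RefSeq's promoter sequences and were placed on GRCm39 by an exact single match, at chr1:72863456-72863605 for *Igfbp2* (plus strand), chr1:72914044-72914193 for *Igfbp5* (minus strand), chr11:98931914-98932063 for *Igfbp4* (plus strand) and chr5:77555932-77556081 for *Igfbp7* (minus strand). Capitals mark the TATA-box letters TATAAA or, where present, the GC-box letters GGGCGG, on either strand.
Igfbp2: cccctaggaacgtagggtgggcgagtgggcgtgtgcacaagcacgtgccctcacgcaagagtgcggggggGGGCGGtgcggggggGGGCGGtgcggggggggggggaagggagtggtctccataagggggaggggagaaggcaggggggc
Igfbp5: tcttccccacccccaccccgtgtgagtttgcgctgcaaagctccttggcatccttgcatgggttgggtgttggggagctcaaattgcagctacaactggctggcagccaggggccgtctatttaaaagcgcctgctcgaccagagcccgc
Igfbp4: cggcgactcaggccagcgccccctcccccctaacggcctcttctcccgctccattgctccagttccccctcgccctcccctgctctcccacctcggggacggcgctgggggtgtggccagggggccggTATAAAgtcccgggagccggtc
Igfbp7: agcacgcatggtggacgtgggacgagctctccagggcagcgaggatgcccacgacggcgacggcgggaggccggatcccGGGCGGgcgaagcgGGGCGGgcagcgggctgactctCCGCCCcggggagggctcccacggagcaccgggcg
The TATA-box, CCAAT-box and GC-box letters were searched on both strands in the 250 bases before the RefSeq start. *Igfbp4* held 1 TATAAA, 28 bases before its RefSeq start, which lies 6 bases downstream of the GENCODE start where the stretch shown ends. TATAAA was found in 13.0% of 27025 promoters. *Igfbp2* held 3 GGGCGG and *Igfbp7* held 4, of which 2 and 3 lie whole in the stretches shown, and 32.9% of promoters held GGGCGG. *Igfbp5* held none of the 3 motifs in these exact letters, and variants of them were not searched. CCAAT, present in 34.5% of promoters, was in none of these 4. The same 250 bases held 14 CG dinucleotides in *Igfbp2*, 10 in *Igfbp5*, 22 in *Igfbp4* and 26 in *Igfbp7*, against a median of 6 over all promoters. RefSeq gives *Igfbp2* a second start, 940 bases from that of GENCODE, whose 250 bases held 0 GGGCGG and 11 CG dinucleotides. These matches describe the sequence only.

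*Igfbp2*, a binding protein abundant in the fetal brain (chr1:72863606-72891634, plus strand), was the most abundant member per kb at both stages. It had 288 and 350.4 normalised CPM in B/J ESCs and 352 and 299 in J/B ESCs. In NPCs its level was 409 and 591 in B/J against 391 and 656 in J/B. All NPC libraries were above all ESC libraries, but the lowest NPC library was only slightly above the highest ESC library. The log2 fold change was 0.67 (SE 0.21, edgeR adjusted p = 0.0207). The call was lost without the B/J ESC replicate 1 (adjusted p = 0.0715), the J/B ESC replicate 2 (0.0565), the B/J NPC replicate 2 (0.0691) or the J/B NPC replicate 2 (0.0627). Within a single cross the change did not pass the test (B/J, 0.65, adjusted p = 0.0929; J/B, 0.69, adjusted p = 0.0799; edgeR), but it did within both crosses with library totals (log2 1.12 and 1.18) or with the housekeeping genes (1.18 and 1.47), and within J/B without the NPC replicate 1 (0.99, adjusted p = 0.0275).

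*Igfbp5*, the most conserved of the binding proteins (chr1:72897091-72914043, minus strand), showed a far larger change than its neighbour. The 2 genes lie tail to tail, 5.46 kb apart with no other annotated gene between them. *Igfbp5* had 0.260 and 1.33 normalised CPM in B/J ESCs and 2.03 and 2.86 in J/B ESCs, from 6 to 67 reads per library. In NPCs it had 373 and 495 in B/J against 704 and 615 in J/B, so that the stages were separated by more than the whole spread within either. Its log2 fold change was 8.58 (SE 0.42, edgeR adjusted p = 1.13e-05), and the pooled counts gave a 344-fold difference (exact 95% interval, 292 to 408). Within B/J the ratio was 541, which became 325 without the ESC replicate 1 and 1654 without the ESC replicate 2, and within J/B it was 267.

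*Igfbp4*, an inhibitor of IGF action that PAPP-A cuts (chr11:98932064-98945218, plus strand), was low in ESCs, with 2.26 and 7.91 normalised CPM in B/J against 5.44 and 5.71 in J/B. It reached 235 and 209 in B/J NPCs and 122 and 233 in J/B NPCs. No NPC library overlapped with an ESC library, although the J/B NPC replicate 1 was well below the other 3. The log2 fold change was 5.22 (SE 0.42, edgeR adjusted p = 4.51e-05). The ratio of pooled counts within B/J was 43.6, or 28.1 and 98.6 without the ESC replicate 1 or the ESC replicate 2. Within J/B it was 30.6, and 21.9 to 41.6 with a library left out.

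*Igfbp7*, a secreted matrix protein that binds IGFs weakly and is known from vessels and connective tissue (chr5:77493130-77555931, minus strand), was at 0 reads in both B/J ESC libraries and at 42 and 1 reads in the J/B ones. Of these, 42 reads came from the J/B ESC replicate 1, where the mesenchyme markers were higher. In NPCs its level was 36.5 and 24.0 normalised CPM in B/J against 56.8 and 30.1 in J/B. The pooled ratio was 78.3 (exact 95% interval, 58.0 to 108), and 2655 without that library (476 to 104873). Within B/J the level was at least 473-fold higher in NPCs, or at least 235-fold with an ESC library left out. Within J/B the ratio was 44.2, or 1056 without the ESC replicate 1 and 20.1 without the ESC replicate 2. The change passed the test (edgeR, adjusted p = 6.09e-04). Of 6 endothelial markers 3 were higher and 1 was lower in NPCs, with a summed level of 238 to 819 normalised CPM against 39.6 to 107 in ESCs, and their part in the *Igfbp7* level was not tested. *Igfbp7* shares 747 exonic bases with *Polr2b* on the opposite strand, and *Polr2b* held 4973 to 5981 reads in the ESC libraries, where *Igfbp7* had 0 to 42.

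*Igfbp6*, which prefers IGF2 over IGF1 (chr15:102052697-102057953, plus strand), stayed at a low level in NPCs. It had 0 and 0 reads in B/J ESCs and 4 and 2 in J/B ESCs, against 73 and 58 reads in B/J NPCs and 57 and 52 in J/B NPCs. The NPC levels, 1.46 to 2.08 normalised CPM, did not overlap with those of ESCs. The pooled ratio was 26.0 (exact 95% interval, 11.8 to 71.5), or 61.5 without the J/B ESC replicate 1, and the change passed the test (edgeR, adjusted p = 3.19e-04). Within B/J it was at least 30.5-fold, or at least 15.1-fold with an ESC library left out. Within J/B the ratio was 10.9, with 18.3 without the ESC replicate 1 and 7.29 without the ESC replicate 2.

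*Igfbp3*, the main IGF carrier of the blood (chr11:7156086-7164179, minus strand), was the only member tested that did not pass. Its ESC levels were 14.8 and 38.2 normalised CPM in B/J against 13.3 and 37.5 in J/B. Its NPC levels were 22.8 and 22.5 in B/J against 25.7 and 24.97 in J/B, all inside the range of the ESCs. The ESC libraries fell into a low and a high pair, since replicate 2 was 2.58 times replicate 1 in B/J and 2.82 times in J/B, whereas the NPC replicates differed by less than 3 percent. The log2 fold change was -0.12 (SE 0.38, edgeR adjusted p = 0.797), and its direction turned when either ESC replicate 2 was left out, to 0.30 without that of B/J and to 0.36 without that of J/B. These data thus did not settle a direction.

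*Igfbp1*, a binding protein known from the liver and the decidua (chr11:7147651-7152546, plus strand), lies tail to tail with *Igfbp3*, 3.54 kb away, with no annotated gene between them. It had 0 and 1 reads in B/J ESCs, 2 and 0 in J/B ESCs, 3 and 3 in B/J NPCs, and 7 and 38 in J/B NPCs. The stages overlapped at this depth, and the J/B NPC replicate 2 stood alone, with 1.23 normalised CPM. The pooled ratio was 11.0 (exact 95% interval, 3.57 to 55.3), 3.64 without that library and 26.1 without the J/B ESC replicate 1. In the J/B NPC replicate 2, the summed level of 7 markers of visceral endoderm and liver was 11.7 normalised CPM, against 0.570 to 2.07 in the other NPC libraries and 1.15 to 3.63 in ESCs, where *Afp*, *Ttr*, *Apoa4* and *Alb* were at 0. Of these 7 markers 1 was higher and 1 was lower in NPCs. Its part in the *Igfbp1* value was not tested.

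Levels per kb of total exon length were then compared between members. In ESCs the order was *Igfbp2* (155 ± 16.1 normalised CPM per kb, SD, n = 4), *Igfbp3* (7.28 ± 3.86), *Insr* (1.78 ± 0.237), *Igf1r* (1.41 ± 0.0987) and *Igfbp4* (1.21 ± 0.526), followed by *Igfbp5* (0.269 ± 0.183) and by *Igfbp7*, *Igfbp6*, *Igfbp1* and *Igf1* at 0.105 or less. *Igf1r* overlapped with *Igfbp4*, and from *Igfbp5* downward each gene overlapped with the next. In NPCs the order was *Igfbp2* (246 ± 63.6), *Igfbp5* (91.0 ± 23.9) and *Igfbp4* (45.1 ± 12.0), whose library ranges did not overlap with those of their neighbours. *Igfbp7* (6.76 ± 2.61), *Igfbp3* (6.73 ± 0.439), *Igf1r* (6.54 ± 1.34) and *Insr* (5.31 ± 1.27) each overlapped with the next, and their order changed when the longest transcript was used in place of all exons. *Igf1* (1.89 ± 0.655) and *Igfbp6* (1.28 ± 0.191) overlapped as well, and *Igfbp1* was lowest at 0.233 ± 0.327.

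Accordingly, binding-protein RNA was nearly pure *Igfbp2* in ESCs and a mixture in NPCs. Of the summed level per kb of the 7 binding proteins, *Igfbp2* made up 92.1% to 96.7% in the ESC libraries (94.6% ± 2.41, SD, n = 4) and 53.5% to 66.7% in the NPC libraries (61.4% ± 5.93). *Igfbp5* made up 0.162% ± 0.116 in ESCs and 23.2% ± 6.79 in NPCs, and *Igfbp4* made up 0.718% ± 0.268 and 11.5% ± 3.49. The ranges of these 3 shares did not overlap between the stages. *Igfbp3* made up 4.42% ± 2.24 in ESCs and 1.73% ± 0.315 in NPCs, also without overlap although its level did not pass the test. With the longest transcript as length, its share in the J/B ESC replicate 1 was 1.55% and in the J/B NPC replicate 1 1.68%, so that the stages overlapped. The sum over all 7 genes was 143 to 181 normalised CPM per kb in ESCs and 326 to 485 in NPCs. The share of *Igfbp7* was 1.80% ± 0.901 in NPCs. These shares are RNA levels and say nothing of protein amounts.

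**Figure D3:**
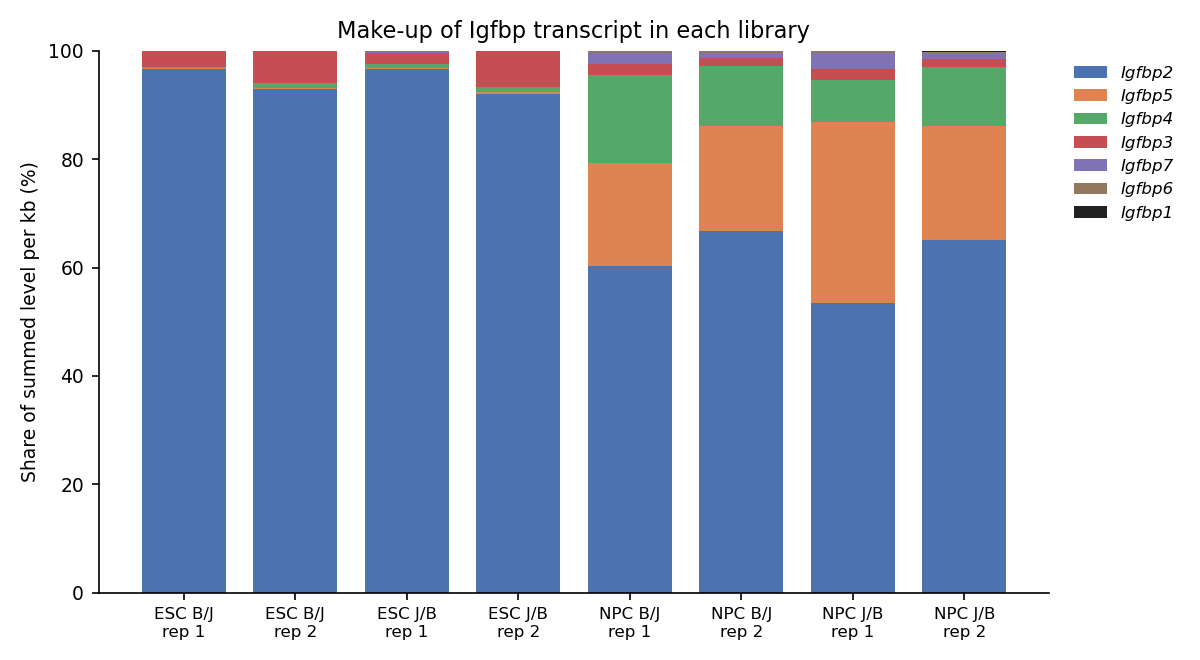
Share of each *Igfbp* gene in the summed level per kb of the 7 binding proteins (%), stacked for each of the 8 libraries. *Igfbp2* fills 92.1% or more of each ESC bar, whereas *Igfbp5* and *Igfbp4* take 19.0% to 33.3% and 7.86% to 16.3% of the NPC bars.

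The reciprocal crosses were compared next. No member passed the test for J/B against B/J in ESCs (0% of all genes), for J/B against B/J in NPCs (0.00610% of all genes) or for the interaction of stage and cross (0% of all genes; edgeR, adjusted p below 0.05), and DESeq2 and limma-voom also called 0 members in each. In the same order, DESeq2 called 0.0610%, 0.453% and 0.0921% of the genes to which it gave an adjusted p (8 of 9 members in the interaction), and limma-voom 0%, 0.00610% and 0%. Before adjustment, 4 members in ESCs (*Igf1*, *Igfbp5*, *Igfbp6* and *Igfbp7*) and 3 in the interaction (*Igf1*, *Igfbp6* and *Igfbp7*) had p below 0.05 with edgeR, and 0 in NPCs. The shares of all genes were 2.11% in ESCs, 3.49% in the interaction and 6.40% in NPCs. DESeq2 gave 4, 3 and 0 members (2.37%, 4.31% and 7.79% of all genes), and limma-voom 2, 1 and 2 (1.15%, 2.42% and 9.75%), those in NPCs being *Igf1* and *Igfbp5*. In ESCs, *Igf1*, *Igfbp6* and *Igfbp7* had counts of 0 in B/J and of 1 to 42 in J/B. *Igfbp5* was higher in both J/B libraries than in both B/J libraries at each stage, with a log2 difference of 1.62 (SE 0.55) in ESCs and 0.60 (SE 0.42) in NPCs, neither of which passed (edgeR, adjusted p = 1 and 0.819). With 2 libraries a group and 1 line a cross, a missed threshold does not show that the crosses were alike.

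Other genes of the axis were taken from 3 lists. Of 5 further ligands and receptors, 3 were tested and all 3 were higher in NPCs (median log2 6.34), beside 37.5% higher and a median log2 of 0.17 over all genes tested. *Igf2*, the imprinted fetal ligand, rose from 15.0 ± 6.77 to 3333 ± 1475 normalised CPM (SD, n = 4; log2 7.70, SE 0.38, edgeR adjusted p = 1.13e-05). *Igf2r*, the imprinted receptor that clears IGF2, rose from 120.3 ± 30.2 to 222 ± 63.7 normalised CPM (log2 0.87, SE 0.13, edgeR adjusted p = 7.01e-04). *Insrr*, a receptor related to *Insr*, had 7 reads in ESCs and 685 in NPCs. It exceeded the low-count filter in 0 ESC libraries and was kept through its NPC level, so that its call is not independent of that filter. *Ins1* was at 0 reads in all libraries and *Ins2* had 9 reads, all in NPCs.

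Of 8 genes whose products cut, carry or guard IGFBPs, 6 were higher and 1 was lower in NPCs (median log2 3.40), beside 37.5% higher and 31.9% lower over all genes. *Pappa* and *Pappa2* exceeded the low-count filter in 0 ESC libraries, so that they were kept through their NPC levels and their calls are not independent of the filter. *Pappa2*, a protease of IGFBP5 and also a trophoblast marker above, had 0 reads in ESCs and 142 to 275 normalised CPM in NPCs, at least 6011-fold higher. *Pappa*, a protease of IGFBP4, rose from 0.123 ± 0.105 to 13.1 ± 4.21 normalised CPM (log2 6.82, SE 0.62, edgeR adjusted p = 6.80e-05). *Stc1*, an inhibitor of these proteases, also rose (log2 5.50, SE 0.67, edgeR adjusted p = 2.53e-04), whereas *Stc2* did not pass (0.26, SE 0.42, adjusted p = 0.593). *Igfals*, which holds IGF and IGFBP3 or IGFBP5 in a circulating complex, was the lower one, from 4.74 ± 1.16 to 0.708 ± 0.266 normalised CPM (log2 -2.72, SE 0.44, edgeR adjusted p = 9.47e-04).

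Below the receptors, the 29 signalling genes split, with 11 higher, 11 lower and 7 not called (median log2 -0.00), beside the 37.5% higher and 31.9% lower over all genes. Among the largest increases were those of *Irs1*, an adaptor of both receptors (log2 3.62, SE 0.53, edgeR adjusted p = 6.13e-04), and of the kinase gene *Akt1* (2.16, SE 0.17, adjusted p = 3.47e-05). The 3 largest decreases were in *Eif4ebp1*, a repressor of translation (-1.67, SE 0.33, adjusted p = 2.54e-03), in *Tsc2*, an inhibitor of mTORC1 (-1.15, SE 0.14, adjusted p = 2.58e-04), and in the adaptor *Gab1* (-1.09, SE 0.18, adjusted p = 1.03e-03). The lower calls depended on the scaling: 14 genes were higher and 4 lower with library totals (*Eif4ebp1*, *Gab1*, *Pdpk1* and *Tsc2*), and 14 higher and 2 lower with the housekeeping genes (*Eif4ebp1* and *Tsc2*).

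**Figure D4:**
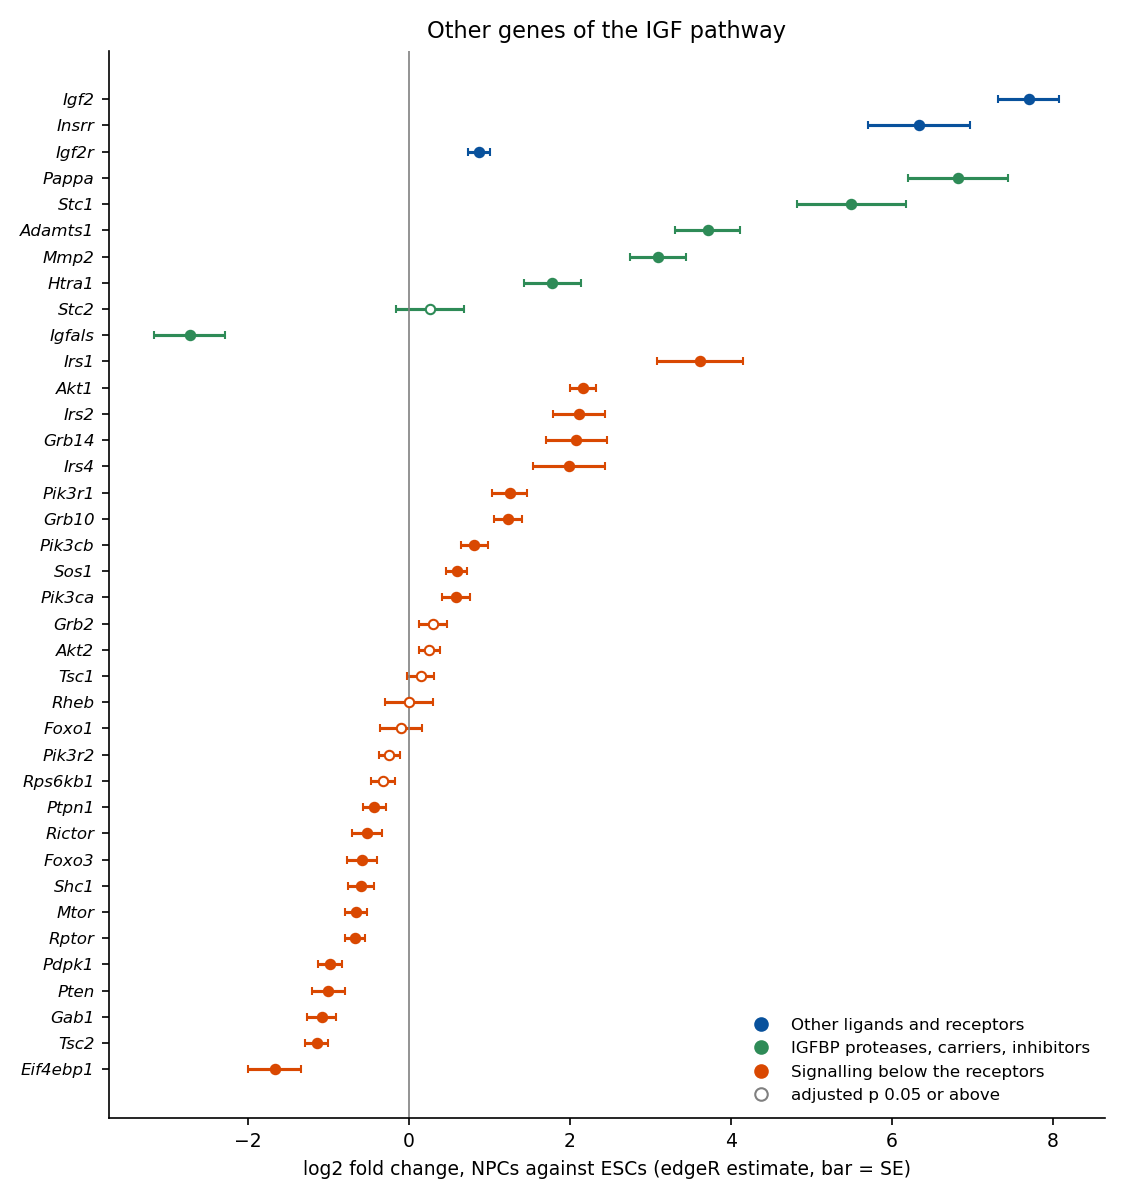
Log2 fold change between NPCs and ESCs (edgeR estimate, bars give the SE) of other genes of the axis that were tested, sorted within each list; open symbols did not pass the test, and *Pappa2*, with no ESC read, is left out. Most ligand, receptor and protease genes lie to the right of 0, whereas the signalling genes shown lie on both sides.

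Finally, for each member with a mean of at least 1 CPM, the genes with the most similar profile over the 8 libraries were named, by the root mean square difference of log2 CPM around each gene's own mean, among 14020 genes. The nearest to *Igf1* was *Tshz2* (0.28), followed by *Dchs1* and *Adamts12*. *Erbin* (0.13), *Stat5b* and *Zbtb5* came closest to *Igf1r*, and *Dynlt1a* (0.10) and *Kif3a* (0.12) were among the closest to *Insr*. For *Igfbp2* these were *Aak1* (0.11), *A730008H23Rik* and *Oip5os1*, and for *Igfbp3* *Rheb* (0.14), *Tmem121* and *H2aj*. The profile of *Igfbp4* was nearest to those of *App* (0.28), *Tmprss2* and *Cacna1g*. *Igfbp7* was nearest to the matrix genes *Col4a1* (0.35) and *Postn* (0.55), with *Stra6* (0.51) between them. *Igfbp5* had the most distant neighbours, *Psg29* (0.62), *Nr2f2* (0.64) and *Nr2f1* (0.67). With 4 libraries at each stage, the profiles of members with large changes share mainly the difference between stages. *Igfbp3* (log2 -0.12) and *Rheb* (-0.0016) did not pass the edgeR test between stages. *Rheb* spread over 41.3 to 97.8 normalised CPM in ESCs and 65.5 to 76.1 in NPCs, and *Igfbp3* also spread more widely in ESCs. All these profiles are given as a description.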

How the data were processed

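Per the labels and the study's methods, the authors mapped paired-end RNA-seq reads on an SNP-masked mm39 genome (TopHat2) and retained properly paired alignments of mapping quality 20 or more. The deposited values are raw read counts per gene for 26263 genes, both alleles together. HTSeq is named in the submitters' processing notes, but the sources used here give neither its version nor its strand setting. Reads given to no gene were left out (5.76% to 10.9% of a library without a feature). The analysis of these counts used edgeR 4.0.16 under R 4.3.3 (robust quasi-likelihood test, TMM, filterByExpr with a minimum count of 10; common dispersion 0.113), with 1 mean for each of the 4 groups. Benjamini-Hochberg adjustment covered all 16399 genes tested, and the threshold was 0.05. DESeq2 1.42.0, limma-voom (limma 3.58.1) and the settings of the closing section were alternatives. Positions and lengths came from GENCODE on GRCm39. The paper mapped reads with an annotation based on the UCSC refGene track, whose exons may differ from these. Levels per kb, shares and the *Igf1r* to *Insr* ratio depend on this choice. A count of 0 was given a limit of 3 counts, and other counts or ratios exact 95% intervals, which cover counting error only. All 10 members and the pathway genes were to be named, the latter as the 3 largest changes in each direction per list with a mean of at least 1 CPM, besides *Igf2* and *Igf2r*; *Ins1*, *Ins2*, *Stc2* and *Pdpk1* were added after their values were seen. The members and lists were chosen with earlier results of these data known. Allelic data were not analysed here. Some genes that these rules would name are not reported here.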

Additional observations from a re-analysis of the deposited data

Results flagged for a closer look

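Over the 4 libraries of a stage, the gap between the extreme library and its neighbour was compared with the whole range (Dixon's ratio, at its 95% critical value), a measure that chance alone exceeds in about 1 of 20 groups. With 10 members at 2 stages, 20 groups were looked at. *Igfbp7* in ESCs had a ratio of 0.981 and *Igf1* in ESCs a ratio of 0.867, both because of the J/B ESC replicate 1 (42 and 6 reads). *Igfbp1* in NPCs had a ratio of 0.918 because of the J/B NPC replicate 2 (38 reads). The marker levels of these libraries stand beside the members in the text, and their part was not tested.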

How the results depend on the processing

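The 8 members called between stages stayed at 8 under all 10 alternatives that kept every library, and leaving out each library gave 7 to 9. *Igfbp2* was lost without 4 of the libraries. *Igfbp1* entered the test without each library except the J/B NPC replicate 2, with log2 values of 2.28 to 4.62. It passed only without the J/B ESC replicate 1 (4.62) or the J/B NPC replicate 1 (3.18). With no low-count filter it was 2.81 and did not pass (edgeR adjusted p = 0.0591). *Igfbp3*, never called, turned from -0.12 to 0.34 with library totals, 0.48 with *Gapdh*, *Gusb* and *Tbp*, and 0.0252 with limma-voom (leave-one-out range, -0.40 to 0.36). Within B/J it turned from -0.23 to 0.23 and 0.27 with these 2 scalings (leave-one-out range, -0.75 to 0.61). Within J/B it turned from -0.01 to 0.46 and 0.69 with them, to 0.13 with limma-voom, to 0.0132 with RLE factors, to 0.0141 with DESeq2, to 0.0143 with no filter and to 0.0116 with a mean of at least 1 CPM (leave-one-out range, -0.57 to 0.95). The cause was not tested. The NPC share of *Igfbp2* moved from 61.4% to 67.7% with the longest transcript as length.

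Same-numbered libraries deviated together within stages (correlation over genes, 0.613 in ESCs and 0.507 in NPCs) but hardly across them (0.0474 to 0.0919), so that the numbers were not taken as pairs. With a replicate block 12010 genes were called in place of 11378, and *Igfbp3* was 0.0481 over both crosses and 0.17 within J/B. With a block within each stage, added after seeing the data, 12845 were called, *Igfbp3* was 0.0541 over both crosses and 0.18 within J/B, and *Igfbp2* passed within both crosses (adjusted p = 0.0129 and 0.0122). Depth limits the folds of *Igf1*, *Igfbp1*, *Igfbp6* and *Igfbp7*, which had few or no reads in most ESC libraries. *Igfbp7* had 42 reads in the J/B ESC replicate 1.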
